A study of Mus musculus with 6 samples.

Results

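The genes described here are 10 that mark visceral endoderm or are secreted by it: the transcription factor gene Hnf4a, the serum protein genes Afp, Ttr and Rbp4, the apolipoprotein genes Apoa1, Apoa4 and Apob, the endocytic receptor genes Amn and Cubn, and the secreted inhibitor gene Spink1. They were picked by name, with earlier results of these data known, so shares over all genes are only a rough background for them. All 10 had at least 1 probe set that the array annotation gave to that gene alone, 26 probe sets in all out of 45101 on the array. Each gene was represented by its brightest probe set on average, as were all 18193 genes tested. The RNA was that of Flk1-positive cells sorted at day 4 from embryoid bodies grown in suspension from mouse embryonic stem (ES) cells of genotype Ldb1+/+ (wild type) or Ldb1-/- (knockout), with no other allele or treatment named for either group. Each genotype had 3 biological replicates on Affymetrix Mouse Genome 430 2.0 arrays. The labels call these sorted cells BL-CFCs, blast colony-forming cells, the culture counterpart of the haemangioblast. They do not say whether a genotype was 1 clone, which part of Ldb1 was removed, or which days or cultures the replicate numbers stand for.

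Visceral endoderm is the outer epithelium of the early embryo and of embryoid bodies. It takes up maternal nutrients through the receptor complex of cubilin and amnionless, and it makes many proteins of blood serum well before the liver does. HNF4A switches on many of these serum protein genes, while LDB1 is an adaptor that joins LIM-domain proteins to GATA and TAL1 complexes and is not itself a DNA-binding protein.

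Upstream sequence is shown for Rbp4, which was lower in knockout arrays. RefSeq promoter windows (GRCm38.p6) were matched for 8 of the 10 members, 10 windows in all. Ttr and Spink1 had no window and were not searched. Each window was cut to the 250 bases before the annotated start. The searched motifs were AGATAA for GATA factors, CAGATG for the TAL1 E-box, CAAAGTCC for HNF4 and TGTTTAC for FOXA, on both strands, and capitals mark a match. The printed window holds 1 match, and the second Rbp4 window, not printed, holds 0.
Rbp4, minus strand, chr19:38125322-38125571: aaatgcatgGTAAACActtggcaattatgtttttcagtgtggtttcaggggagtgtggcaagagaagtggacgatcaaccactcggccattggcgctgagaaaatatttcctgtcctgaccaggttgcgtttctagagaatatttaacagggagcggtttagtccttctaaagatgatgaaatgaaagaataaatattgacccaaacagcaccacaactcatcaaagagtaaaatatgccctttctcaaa
The capitals are a FOXA match on the opposite strand, a motif that 3.17% of 32851 promoter windows of this length hold. Among the other members Hnf4a had 1 GATA match in 1 of its 2 windows and Amn had 2 TAL1 E-box matches, motifs held by 9.99% and 14.4% of windows. The HNF4 motif, held by 1.2%, matched in none of the members' windows. These are letter matches and were not tested for binding.

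Across the series, array medians lay between 5.71 and 5.77 on the log2 scale. Wild-type replicate 3 had an upper quartile of 7.92, against 8.15 to 8.27 on the other arrays, and a lower quartile of 4.37, against 4.22 to 4.28. Dim probe sets often read highest on that array: among 15555 single-gene probe sets below the median level, 38.4% had their highest value there. Ldb1, read by 1 probe set, had means of 7.80 ± 0.50 (wild type; SD, n = 3) and 7.37 ± 0.83 (knockout), which does not check the genotype because the removed part is not given. The 9 Flk1 mesoderm and haemangioblast markers analysed were all above the median probe set level of 5.75, with list means of 10.34 to 10.79 in wild-type and 10.01 to 10.70 in knockout arrays. Only 4 of the 10 visceral endoderm members, Hnf4a, Ttr, Rbp4 and Spink1, lay above that level. Over all genes, each read by its brightest probe set, 11191 of 18193 did. Probe sets differ in how well they bind, so a position on the array does not rank the amounts of different RNAs. The files hold no detection calls.

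Spink1 and Rbp4 were the 2 members that were lower in every knockout array than in any wild-type array. Spink1 was 2.49-fold and Rbp4 1.89-fold lower on average. The other 8 members, among them Afp, Ttr and Hnf4a, differed by at most 0.26 on the log2 scale. Over all genes 4.47% were lower in knockout arrays with no overlap. In limma without a block 0 of the 10 members passed an adjusted p of 0.05, against 0.0220% of all genes called, and 2 had an unadjusted p under 0.05, as had 701 of 18193 genes (3.85%). With the replicate number as a block 1 member fell, Spink1, where 0.231% of all genes were called lower.

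**Figure D1:**
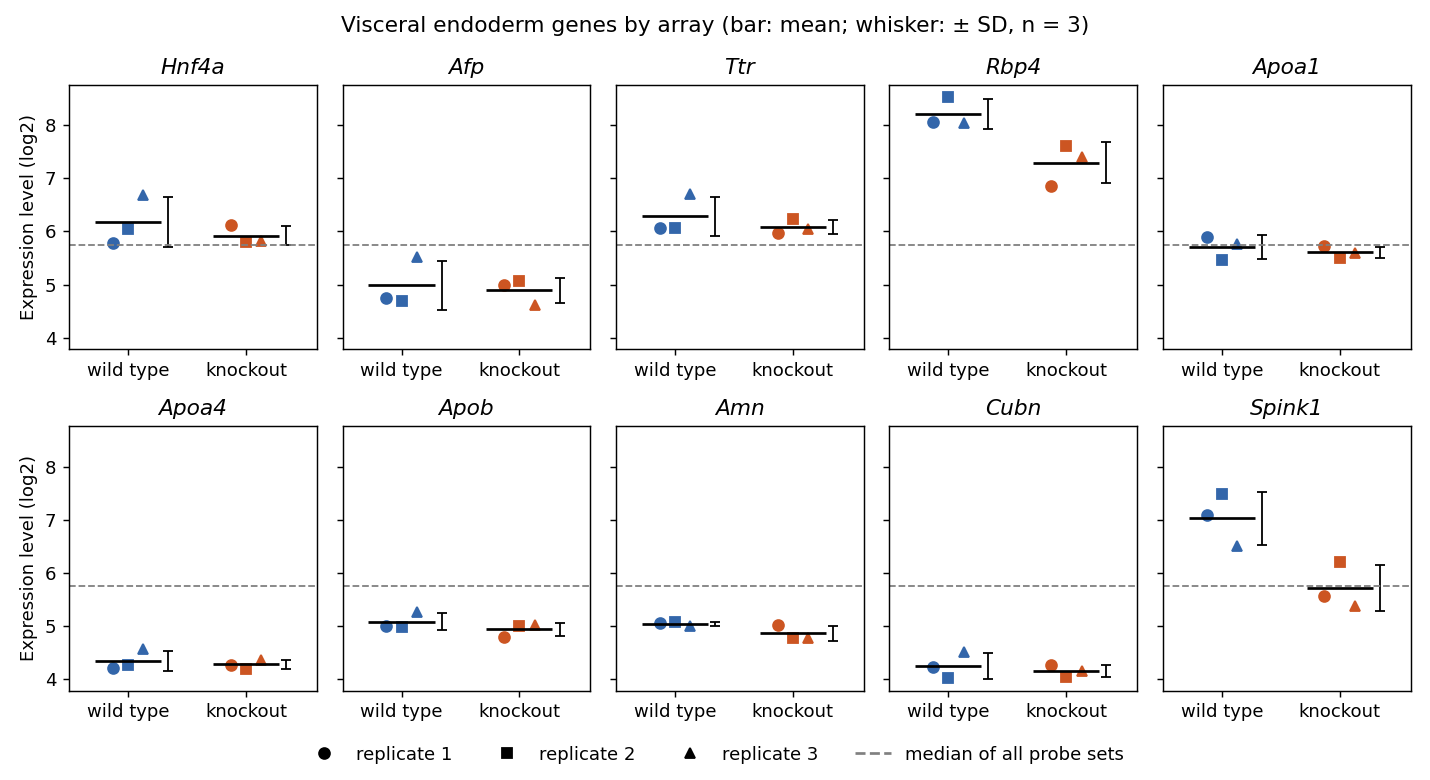
Log2 expression level of the kept probe set of each gene on the 6 arrays, wild type in blue and knockout in orange, with symbols for the replicate number, the group mean as a bar and ± SD as a whisker; the dashed line is the median of all probe sets at 5.75. The groups separate for Rbp4 and Spink1, and wild-type replicate 3 is the highest array for 6 of the other 8 genes.

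Hnf4a encodes a nuclear receptor that drives serum protein and apolipoprotein genes in visceral endoderm and liver. Its kept probe set read 5.78, 6.05 and 6.69 in wild-type replicates 1, 2 and 3, and 6.12, 5.80 and 5.82 in knockout replicates 1, 2 and 3. The groups overlapped, and wild-type replicate 3 was the one high array. The difference was −0.26 (SE 0.25; limma, adjusted p = 1.00), with a 95% interval of −0.85 to 0.33. By replicate number it was 0.34, −0.25 and −0.87, and without both arrays of number 3 it was 0.05. The gene's other 3 probe sets had means of 5.85, 3.97 and 3.32. They differed by −0.06, −0.21 and 0.20. The second of these had no overlap between the groups, at 3.94 to 4.28 in wild-type and 3.83 to 3.90 in knockout arrays, but it lay in the lower quartile of the array and did not pass with the block (adjusted p = 0.856 over probe sets).

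Afp encodes alpha-fetoprotein, the main serum protein of visceral endoderm and fetal liver. It read 4.74, 4.69 and 5.52 in wild-type and 4.98, 5.07 and 4.62 in knockout arrays. All values lay below the median probe set level, and the groups overlapped. The difference was −0.09 (95% interval −0.70 to 0.52; limma, adjusted p = 1.00), and it turned to 0.18 without wild-type replicate 3. Within numbers 1, 2 and 3 the differences were 0.24, 0.38 and −0.90. The gene's other 4 probe sets had means between 3.11 and 4.78, with differences between −0.01 and 0.15.

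Ttr encodes transthyretin, which carries thyroid hormone and, bound to retinol-binding protein, vitamin A. It read 6.06, 6.07 and 6.71 in wild-type and 5.97, 6.23 and 6.04 in knockout arrays. Wild-type replicate 3 was again the one high array, and both other wild-type arrays lay within the knockout range. The difference of −0.20 (95% interval −0.69 to 0.30; limma, adjusted p = 1.00) became 0.02 without that array. The other 3 Ttr probe sets had means of 3.51 to 4.09 and differences of −0.38 to −0.14, so the level that put Ttr above the array median rested on 1 of 4 probe sets.

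Rbp4 encodes retinol-binding protein, the carrier that brings vitamin A through the blood to cells. Its 1 probe set read 8.06, 8.53 and 8.04 in wild-type and 6.86, 7.62 and 7.41 in knockout arrays. The knockout arrays were all below the wild-type arrays, by 1.20, 0.92 and 0.63 in numbers 1, 2 and 3. The means were 8.21 ± 0.28 and 7.30 ± 0.39 (SD, n = 3), a difference of −0.92 (SE 0.24), or 1.89-fold lower with a 95% interval of 1.27-fold to 2.80-fold. Differences this far below 0 were found for 0.627% of genes. It did not pass over all genes in limma, with an adjusted p of 0.755 without the block and 0.0910 with it. Without both arrays of number 3 it passed with the block (difference −1.06, adjusted p = 0.000730). That fit had only 2 arrays per genotype. It called 815 of 18193 genes, against 62 in the blocked fit of all arrays, so a pass there was less selective. Without both arrays of number 1 the Rbp4 difference was −0.77 and did not pass (blocked adjusted p = 0.402).

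The 3 apolipoprotein genes encode coat proteins of lipoprotein particles. Apoa1, of high-density lipoprotein, read 5.89, 5.45 and 5.77 in wild-type and 5.72, 5.51 and 5.59 in knockout arrays. Apoa4, a neighbouring gene in the same cluster, read 4.21, 4.26 and 4.56 in wild-type and 4.27, 4.19 and 4.35 in knockout arrays. Apob, the structural protein of particles that carry lipid out of visceral endoderm, read 4.99, 4.97 and 5.26 in wild-type and 4.78, 5.01 and 5.01 in knockout arrays. All 3 genes overlapped between the groups, with mean levels below the array median. Their differences were −0.10, −0.07 and −0.14 (limma, adjusted p = 1.00 for each), and the 95% intervals ran from −0.48 at the lowest to 0.27 at the highest. The other 3 Apoa1 probe sets differed by −0.31, −0.27 and −0.15, each with its highest value in wild-type replicate 3. One of them had no overlap, at 4.67 to 5.22 in wild-type and 4.57 to 4.62 in knockout arrays. The second probe sets of Apoa4 and Apob differed by −0.15 and 0.06.

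Amn and Cubn encode amnionless and cubilin, the 2 parts of the receptor by which visceral endoderm takes up nutrient-carrying proteins. Amn read 5.04, 5.07 and 4.99 in wild-type and 5.01, 4.78 and 4.78 in knockout arrays. It was lower in the knockout array of all 3 numbers, by 0.04, 0.29 and 0.22. Lower values in all 3 numbers were found for 3 of the 10 members, Rbp4, Spink1 and Amn, and for 14.9% of all genes. The Amn difference of −0.18 had a 95% interval that included 0 (−0.48 to 0.12; limma, adjusted p = 1.00). The groups overlapped, since knockout replicate 1 read above wild-type replicate 3. Cubn read 4.23, 4.02 and 4.51 in wild-type and 4.26, 4.03 and 4.15 in knockout arrays, a difference of −0.10 with overlapping groups. Its second probe set, with a mean of 3.89, differed by 0.02.

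Spink1, written Spink3 in older mouse annotation, encodes a secreted inhibitor of trypsin that is found in gut endoderm, pancreas and visceral endoderm. It read 7.09, 7.48 and 6.50 in wild-type and 5.56, 6.20 and 5.37 in knockout arrays. Every wild-type array lay above the array median of 5.75 and above every knockout array, while 2 of the 3 knockout arrays lay below that median. The means were 7.03 ± 0.49 and 5.71 ± 0.44 (SD, n = 3), a difference of −1.31 (SE 0.31), or 2.49-fold lower with a 95% interval of 1.49-fold to 4.16-fold. Differences this far below 0 were found for 0.258% of genes. The number-wise differences of −1.53, −1.28 and −1.13 were close to each other, and in both genotypes number 2 was the highest array and number 3 the lowest. Without the block Spink1 did not pass (limma, adjusted p = 0.667), and with the block it fell (adjusted p = 0.0238, SE 0.14). It passed in 9 of 10 settings with the block, the exception being without both arrays of number 1 (adjusted p = 0.0572), and in 0 of 16 settings without it. It was read by 1 probe set. In bulk samples such as these, fewer cells that make a transcript and less of it per cell cannot be told apart.

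**Figure D2:**
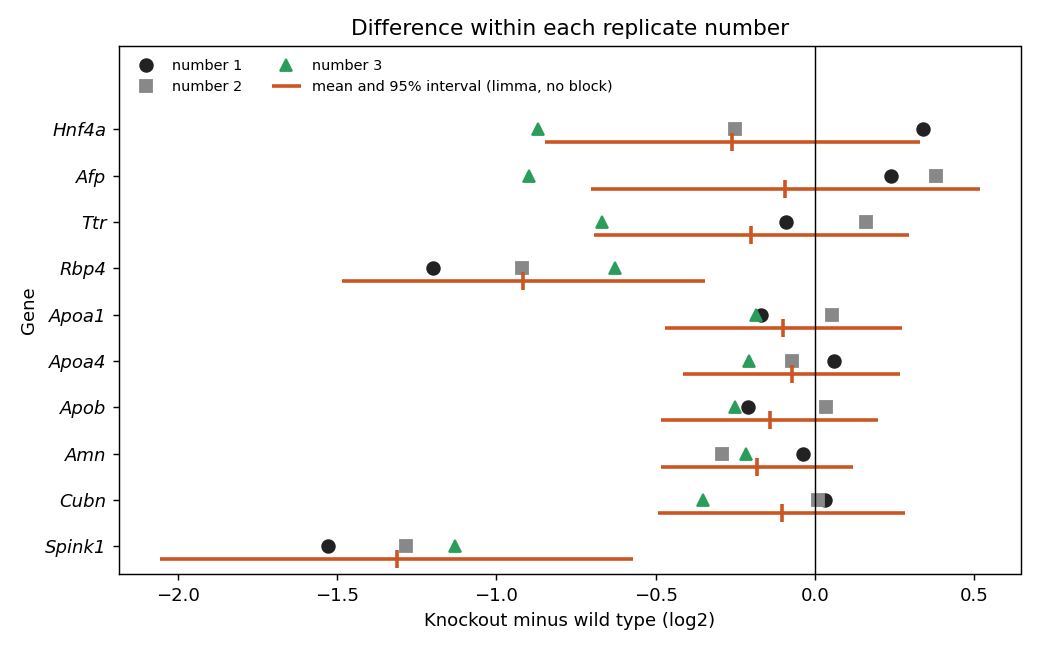
Knockout minus wild type on the log2 scale within replicate numbers 1, 2 and 3 for each gene, with the mean difference and its 95% interval from limma without the block in orange. All 3 numbers lie below −0.6 for Rbp4 and below −1.1 for Spink1, whereas number 3 is the lowest for 7 of the other 8 genes.

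All 10 members had a mean difference below 0, where 53.7% of all genes and 61.3% of genes below the median level did. The median difference over the members was −0.16, against −0.01 over all genes. That count did not hold up against 1 array: without wild-type replicate 3, 6 of 10 were lower. Over the 8 members other than Rbp4 and Spink1 the medians by number were −0.00, 0.02 and −0.30. Of these 8 members, 6 had their highest value in wild-type replicate 3, as had 25.1% of all genes and 45.2% of those below the median level. Hnf4a and Ttr, among the 6, lay above that level. The 95% intervals of these 8 ran from −0.85 (Hnf4a) to 0.52 (Afp), so a fall of up to 1.80-fold in Hnf4a or a rise of up to 1.43-fold in Afp lies within them. Near background such intervals on the array's scale can understate a difference in RNA.

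Together the kept and other probe sets of these 8 members numbered 24. They had means between 3.11 and 6.18, and 21 of them lay below the median level. Their differences ran from −0.38 to 0.20, with 18 lower and 6 higher, and 0 passed in limma over probe sets with or without the block (lowest adjusted p 1.00 and 0.818; 0 of the 8 kept sets had an unadjusted p under 0.05). Of the 21 dim ones 10 were highest in wild-type replicate 3.

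**Figure D3:**
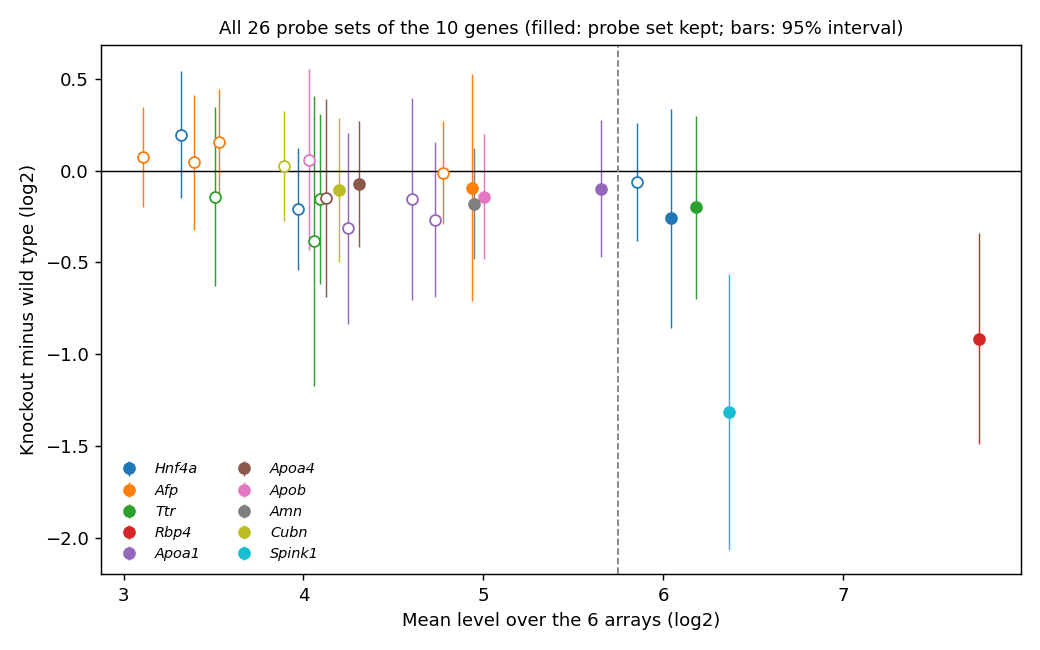
Mean log2 level over the 6 arrays against the knockout minus wild-type difference for all 26 probe sets, filled where the probe set was kept for its gene, with 95% intervals from limma without the block and a dashed line at the median level of 5.75. Rbp4 and Spink1 are the 2 probe sets whose interval excludes 0.

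Other endoderm genes were set beside the members by lists, whose p-values were adjusted over all genes. Counts at an unadjusted p are read against 701 of 18193 genes (3.85%) without the block and 1626 (8.94%) with it. Of 12 endoderm transcription factor genes analysed 9 were lower, with a median of −0.19, and 0 passed in limma without or with the block (0 and 4 at an unadjusted p under 0.05). Gata6, a driver of primitive endoderm that is also active in cardiac mesoderm, had the highest mean, 10.89 ± 0.65 for wild type against 10.97 ± 0.52 for knockout (SD, n = 3). Hhex, of anterior visceral endoderm and of blood and vessel precursors, stood at 9.81 ± 0.46 and 9.27 ± 0.75. Both are shared with mesoderm, so their levels do not measure endoderm in these cells.

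The 18 other secreted serum and lipoprotein genes had a median of −0.05, with 12 lower and 0 called in either fit (0 and 1 at an unadjusted p under 0.05). Only 3 of them lay above the median level, and 10 had their highest value in wild-type replicate 3. Apoe, an apolipoprotein made by many cell types, read 10.70, 10.83 and 11.61 in wild-type and 11.06, 11.36 and 12.14 in knockout arrays. It was higher in the knockout array of each number, with a difference of 0.47 that did not pass (limma, adjusted p = 1.00, blocked 0.280). Mttp, which loads lipid onto apolipoprotein B, stood at 6.80 ± 0.28 and 6.58 ± 0.07. The 7 endocytic uptake genes had a median of −0.09 with 6 lower and 0 called in either fit (1 and 2 at an unadjusted p under 0.05). The brightest were Lrpap1, a chaperone of endocytic receptors, at 11.09 ± 0.12 and 10.85 ± 0.24, and the HDL receptor gene Scarb1 at 10.16 ± 0.41 and 10.10 ± 0.69. Pdzk1 was the 1 uptake gene lower with no overlap, by 0.60, and did not pass (limma, blocked adjusted p = 0.335).

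Among 12 visceral endoderm signals and other markers 7 were lower and the median was −0.05. Without and with the block, 2 and 3 had an unadjusted p under 0.05 in limma. With the block 1 fell, Rhox5, an X-linked homeobox gene active in extraembryonic tissues. It read 8.96, 8.25 and 8.09 in wild-type and 7.15, 7.33 and 6.27 in knockout arrays, with no overlap. The difference of −1.52 passed narrowly with the block (limma, adjusted p = 0.0500 after rounding) and not without it (adjusted p = 0.588). With the block it passed in 8 of 10 settings, and not without both arrays of number 1 (adjusted p = 0.0714) or with quantile normalisation repeated (adjusted p = 0.117). Bmp2, a ligand made by visceral endoderm and by cardiac mesoderm, differed by −0.98 and the Wnt inhibitor gene Dkk1 by 0.52, and neither passed (adjusted p = 1.00 for each). Dkk1 was higher in every knockout array than in any wild-type array.

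**Figure D4:**
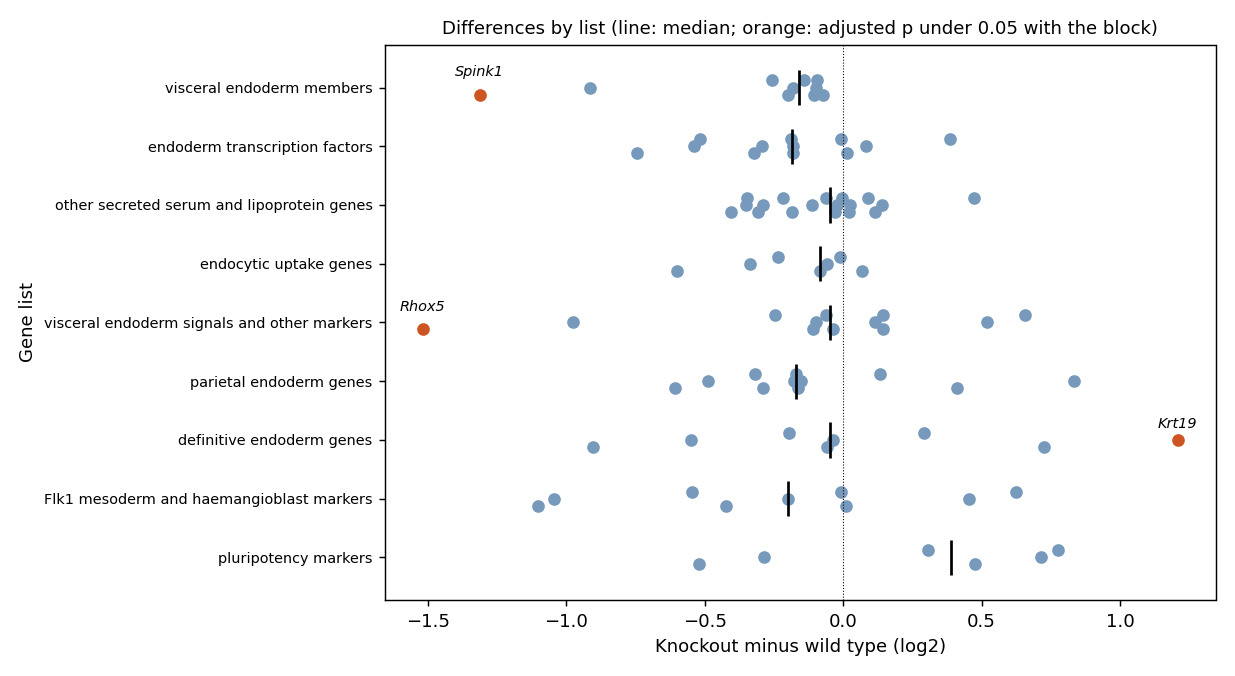
Knockout minus wild type on the log2 scale for each gene of the visceral endoderm members and of 8 other lists, with the list's median as a vertical line and genes with an adjusted p under 0.05 in limma with the block in orange. Spink1 and Rhox5 lie lowest of the genes that passed and Krt19 lies at 1.21.

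Parietal endoderm genes, of the basement membrane-secreting sister lineage, had a median of −0.17 over 11 genes with 8 lower and 0 called in either fit (1 and 3 at an unadjusted p under 0.05). The collagen gene Col4a1 averaged 11.37 ± 0.93 for wild type and 11.20 ± 1.06 for knockout, and Sparc, a matrix glycoprotein gene, at 11.51 ± 0.51 and 10.90 ± 0.56. Vessel and mesoderm cells make both. The 1 parietal gene at an unadjusted p under 0.05 without the block was Plat, which was higher with no overlap. With the block the 3 were Plat and Nid1, which were higher, and Sparc, which was lower (differences 0.83, 0.41 and −0.61). Of the 8 definitive endoderm genes 5 were lower and the median was −0.05. Without and with the block, 2 and 4 had an unadjusted p under 0.05 in limma. Krt19, a keratin of simple epithelia, rose with the block, where 0.341% of all genes were called in either direction. It read 8.32, 7.53 and 7.49 in wild-type and 9.41, 8.87 and 8.69 in knockout arrays, with no overlap, a difference of 1.21 (limma, blocked adjusted p = 0.0238, unblocked 0.667). With the block and quantile normalisation repeated it did not pass (adjusted p = 0.0629). The chemokine receptor gene Cxcr4 stood at 9.83 ± 0.32 and 9.28 ± 0.57. Kitl, of the same list, was lower by 0.91 with no overlap and did not pass (limma, adjusted p = 0.410, blocked 0.0910). Spink1 and Krt19 thus differed in opposite directions in the same arrays, and Spink1 and Kitl in the same direction.

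Markers of the sorted cells and of ES cells were given as a check on the mix. Of the 9 Flk1 mesoderm and haemangioblast markers 6 were lower, with a median of −0.20, and 0 were called in either fit (0 and 4 at an unadjusted p under 0.05). Kdr, the gene of Flk1 itself, stood at 12.12 ± 0.33 and 11.70 ± 0.44, and Etv2, a driver of the haemangioblast, at 11.66 ± 0.06 and 12.11 ± 0.70. The 4 with the block were Hand1, Fli1 and Kdr, which were lower, and Lmo2, which was higher. Their differences were −1.10, −1.04, −0.42 and 0.62. Of 6 pluripotency markers 4 were higher in knockout arrays, with a median of 0.39 and 0 called in either fit (1 and 3 at an unadjusted p under 0.05). Their list means were 7.28 to 7.83 in wild-type and 7.53 to 7.98 in knockout arrays. Pou5f1 read 9.65, 8.85 and 10.82 in knockout arrays against 9.28 to 9.33 in wild-type arrays, and Klf4 differed by −0.52. Zfp42 was the 1 marker of the 6 higher in every knockout array than in any wild-type array, and 0 were lower with no overlap. Its difference of 0.78 did not pass (limma, adjusted p = 0.879, blocked 0.122). Over all genes 628 of 18193 were higher in knockout arrays with no overlap. The part of a different cell mix in the Spink1 and Rbp4 differences was not tested.

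Genes with a similar pattern over the 6 arrays were sought for the mean centred profile of the 4 members above the median level. These were Hnf4a, Ttr, Rbp4 and Spink1, and the dimmer members were not used. Of the 4, Hnf4a and Ttr overlapped between the groups, so the average is not the pattern of each member. This mean profile read 0.16, 0.45 and 0.40 in wild-type and −0.46, −0.12 and −0.43 in knockout replicates 1, 2 and 3. Among 11187 other genes above that level, Slc43a3 was the closest, with a root mean square distance of 0.06 on the log2 scale over 6 arrays. Bbs10 and Ccdc40, at 0.11 each, and Hmgn3 and Drc3, at 0.12 each, followed. Slc43a3 read 7.16, 7.49 and 7.37 in wild-type and 6.50, 6.86 and 6.70 in knockout arrays. Being like a profile that was lower in knockout arrays, they were lower there by construction, and 0 of the 5 passed in limma (lowest adjusted p 0.192, or 0.0627 with the block).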

How the data were processed

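Biotin-labelled cRNA from 6 samples was measured on Affymetrix Mouse Genome 430 2.0 arrays, per the labels' protocols. The authors deposited a log2 level for each probe set, and the submitters' processing notes name RMA and affy, with versions not given in the sources used here. RMA as usually run corrects background, gives the arrays a common distribution and summarises probes. The log2 scale was taken from the range of the values. Of 45101 probe sets 64 were controls, 34945 had exactly 1 gene in the platform annotation, 932 several and 9160 none. The labels call the replicates biological but do not say whether they came from separate cultures. The p-values without the block thus measure the spread between these samples. Those with the block measure how the differences within a number vary across the numbers.

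Per gene the probe set with the highest mean was kept, and 18193 genes were fitted with limma 3.58.1 (R 4.3.3, lmFit and eBayes), with Benjamini-Hochberg adjustment over all genes and a threshold of 0.05. The same model was also run with the replicate number as a block. Deviations from the genotype means correlated at 0.698, 0.350 and 0.446 across probe sets between arrays of the same number. Each was over 0.1, so the numbers were taken to pair the arrays, and blocked values stand beside results they change. Between arrays of unlike numbers the correlations ran from −0.501 to −0.0142. The pairing comes from the same data that the blocked fit tests, not from the labels. Scripts were tested on simulated data. Figures used matplotlib 3.10.9 in Python 3.11.15.

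The members and the 8 other lists, of 89 genes, were chosen with earlier results of these data known. Some listed genes were not analysed here. The genes named are all members, the genes of each list past the threshold in either fit (up to 4), the 2 brightest of each list, and the 5 nearest profiles. Zfp42, Kitl, Plat and Pdzk1 are also named, for the lack of overlap between their groups. Nid1, Hand1, Fli1 and Lmo2 are named for an unadjusted p under 0.05 with the block, in the parietal and mesoderm lists only. Alternatives were the block, each array left out, other choices of probe set, a trended robust variance, a filter on dim probe sets, and arrays either quantile-normalised again or centred on their medians. Combinations with the block and leaving out both arrays of a number were added after seeing the data. The number of arrays limits the precision.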

Additional observations from a re-analysis of the deposited data

How the results depend on the processing

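The replicate block raised the number of genes called from 4 to 62 and of members called from 0 to 1, Spink1. No other member's call changed with it. Leaving out 1 array at a time without the block gave 1 to 6 genes, the 6 without wild-type replicate 3, and 0 members. With the block, 55 genes were called when dim probe sets were removed, 26 when quantile normalisation was repeated, 65 when array medians were subtracted, 48 when probe sets were averaged and 50 when those shared by several transcripts were dropped, each with 1 member. A trended robust variance with the block gave 264 genes and 2 members, Rbp4 (limma, adjusted p = 0.0255) besides Spink1. Without both arrays of number 1, 2 or 3 the block gave 50, 267 and 815 genes and 0, 1 and 2 members, and the fit without it 1, 1 and 2 genes. Removing dim probe sets left 4 members, 4 of them lower with a median of −0.587. The number of members lower ranged from 6 to 10 with 1 array left out, the 6 being without wild-type replicate 3, and was 6 without both arrays of number 3. With 1 array left out Afp ranged from −0.242 to 0.175, Ttr from −0.310 to 0.0157, Apoa4 from −0.141 to 0.0358 and Cubn from −0.220 to 0.0242, the highest values again without wild-type replicate 3. Afp was 0.0332 with probe sets averaged and Cubn 0.0234 without shared probe sets, with or without the block. Without both arrays of number 3, in either fit, Afp was 0.310, Ttr 0.0352, Cubn 0.0200 and Hnf4a 0.0455. The other 167 of 184 values of these and the remaining dim members kept their sign and did not pass. The cause was not tested.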
